A study of Mus musculus with 19 samples.

Results

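The effect of the dimerizing drug AP20187 was described in the dorsal root ganglia of mice with experimental knee osteoarthritis, across all expressed genes. The comparison used 10 of the 19 libraries of the study: the 5 labelled DMM with AP20187 (numbers 58 to 62) and the 5 labelled DMM with vehicle (numbers 32, 33, 34, 63 and 64). All mice were males homozygous for the MaFIA transgene (macrophage Fas-induced apoptosis), so the controls carried it too. DMM, surgical destabilization of the medial meniscus, had been performed 8 weeks earlier, and drug or vehicle was injected into the peritoneum once a day on 5 consecutive days. Ganglia of lumbar levels 3 to 5 on the operated side were pooled, and stranded poly(A) libraries were made. Naive age-matched mice with AP20187 (n = 4) or vehicle (n = 5) entered the shared model and the test of whether the drug difference depended on surgery. Their age was not stated in the labels.

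As background, the MaFIA transgene is driven by the Csf1r promoter, which is active in macrophages and also in other myeloid cells. AP20187 joins 2 copies of the encoded Fas fusion protein and thereby starts apoptosis in the cells that carry it. Dorsal root ganglia hold the cell bodies of sensory neurons, with satellite glia, Schwann cells, fibroblasts, vessels and resident macrophages around them. Granulocytes, red cells and B cells are made in the bone marrow and reach the ganglion by the blood. In bulk tissue, fewer cells of a type and less RNA per cell cannot be told apart.

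The libraries held 61553995 to 66561646 counts with AP20187 and 62269569 to 67361411 with vehicle. Values are CPM, counts divided by a library size that was scaled between libraries with TMM, and genes were tested with edgeR's quasi-likelihood F test with Benjamini-Hochberg adjustment. Nothing in the labels says how the mice were housed or which were handled together, so p-values measure the spread between these samples. The 5 vehicle libraries did not form a uniform group. Numbers 63 and 64 differed from numbers 32, 33 and 34 in many of the lists below, and AP20187 libraries carried numbers close to the former. Whether the numbers mark a batch is not stated, so results are also given against each part of the vehicle group.

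The labelled tissue was checked by summed marker levels. The 9 sensory neuron markers summed to 1400, 2632, 2825, 3855 and 2337 CPM in AP20187 libraries 58 to 62. In vehicle libraries 32, 33, 34, 63 and 64 they summed to 6711, 6925, 5473, 6632 and 3623 CPM, and vehicle 64 fell within the AP20187 range. Neutrophil markers (6 genes such as S100a8 and Ngp) summed to 13930 to 23330 CPM with AP20187 against 343.9 to 6792 CPM with vehicle, and 4 of 6 rose. Granulocyte precursor markers (5 genes such as Mpo and Elane) reached 1222 to 2625 CPM against 30.25 to 403.9 CPM, and 5 of 5 rose. Within the vehicle group, libraries 63 and 64 had more than the other 3 in the granulocyte, erythroid (5130 and 11690 CPM) and early B lineage lists (26.28 and 56.21 CPM).

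Macrophage markers (6 genes) did not separate the groups by their sum, although 1 of 6 rose and none fell. They summed to 784.5, 688.2, 554.7, 214.5 and 186.1 CPM in AP20187 libraries 58 to 62, against 120.2 to 488.1 CPM with vehicle. AP20187 libraries 61 and 62 lay within the vehicle range and the other 3 above it. Csf1r, the receptor whose promoter drives the transgene, did not pass, with -0.02 on the log2 scale (SE 0.458, adjusted p = 0.982). Neither did Adgre1 (0.87, adjusted p = 0.242) or Cd68 (0.90, adjusted p = 0.151), 2 further macrophage genes, although Cd68 passed without vehicle 64 (1.53, adjusted p = 0.00722). Both passed as higher against vehicle 32, 33 and 34 (Adgre1 1.59, adjusted p = 0.047, and Cd68 1.97, adjusted p = 0.00196). Their values against vehicle 63 and 64 were 0.24 (adjusted p = 0.905) and 0.08 (adjusted p = 0.958). The sign of the Csf1r value turned under several settings, and its endogenous reads do not check whether the transgene was active. Skeletal muscle markers summed to 1713 CPM in vehicle 32 and to at most 222.1 CPM elsewhere. Spinal cord glia markers summed to 44.01 to 62.43 CPM with AP20187 and to 63.39 to 74.56 CPM with vehicle, so that every AP20187 library lay below every vehicle library. The part of these markers in the results below was not tested.

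**Figure D1:**
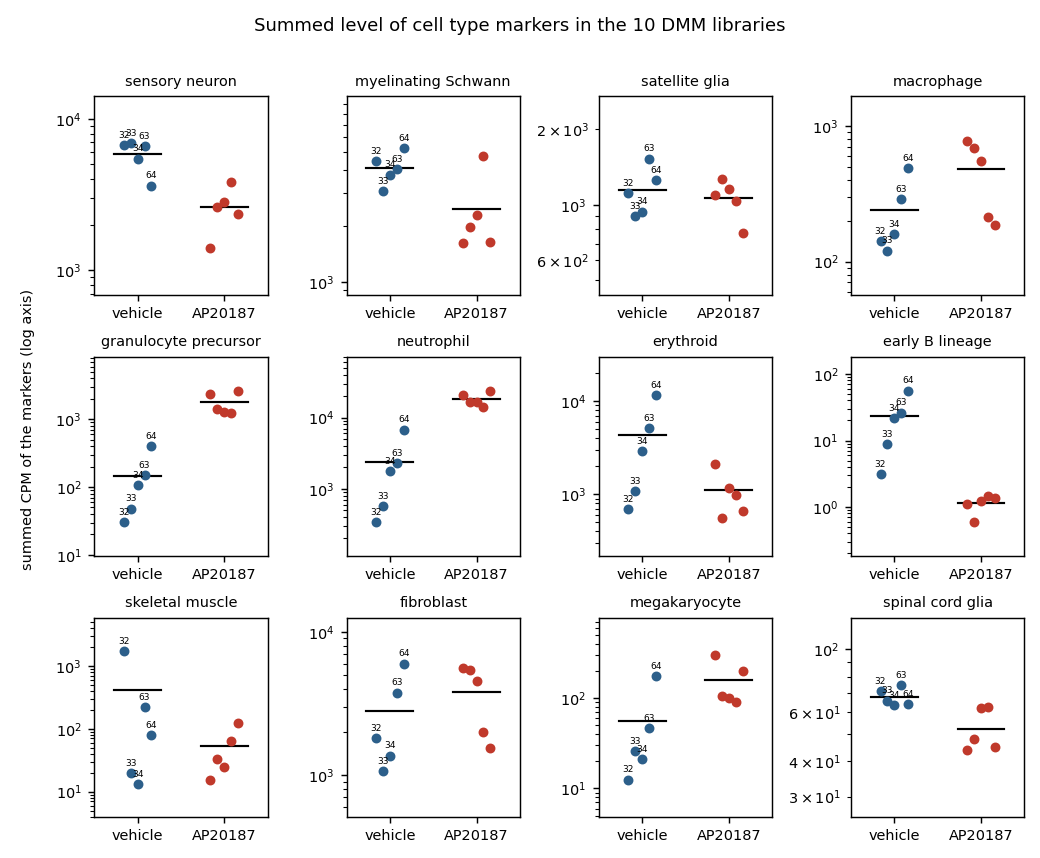
Summed level of the markers of 12 cell types (CPM, log axis) in the 10 DMM libraries; each point is 1 library, vehicle libraries carry their number and black lines are group means. Neutrophil and granulocyte precursor markers are separate between groups, the summed early B lineage markers are lower in every AP20187 library, and vehicle 64 is the highest vehicle library in both granulocyte lists.

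In all, 5410 of 22778 tested genes passed an adjusted p of 0.05, which is 23.8% of them. AP20187 was higher for 2582 genes (11.3%) and lower for 2828 genes (12.4%), and 1534 and 1420 of these differed by 2-fold or more. The median log2 fold change over all tested genes was -0.0963. With vehicle 63 and 64 alone as controls, 2.71% of genes were higher and 2.02% lower, with fewer samples in the fit. With vehicle 32, 33 and 34 alone, 17.5% were higher and 18.8% lower. In total 737 genes passed in the same direction in the fit with all vehicle mice and in both restricted fits, 499 higher and 238 lower, which is 13.6% of the 5410. The 3 fits share the AP20187 libraries. The counts of members given below for each list are to be read against the shares over all genes in the same fit. With 1 library left out the count of 5410 was 3212 without AP20187 58, 3407 without vehicle 33 and 3419 without vehicle 32.

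The libraries also differed in composition. The 100 most abundant genes took 27.51% ± 2.54 (SD, n = 5) of counts with AP20187 and 22.41% ± 2.62 (SD, n = 5) with vehicle, an exact two-sided permutation p of 0.0159 and 0.0397 after adjustment over 5 composition values. Genes of the mitochondrial genome took 8.889%, 14.76%, 12.55%, 10% and 13.02% of counts in AP20187 libraries 58 to 62. In the vehicle libraries they took 8.557%, 5.117%, 5.924%, 8.07% and 8.592%, so the groups did not overlap (exact permutation p = 0.00794, the smallest that 5 against 5 allows, adjusted 0.0397). Genes with predicted-gene or clone names took 4.679% ± 0.575 against 3.668% ± 0.44 of counts (exact permutation p = 0.0238, adjusted 0.0397). The number of genes at 1 CPM or more was nearly equal, at 16043 ± 177 and 16038 ± 292 (exact permutation p = 0.96).

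Genes that span 100 kb or more took 9.764% ± 1.35 of counts with AP20187 and 13.57% ± 3.78 with vehicle, which did not pass (exact permutation p = 0.0794, adjusted 0.0992). The vehicle values were 14.44%, 17.82% and 16.17% in libraries 32, 33 and 34 but 10.67% and 8.755% in 63 and 64, which lie in the AP20187 range of 8.483% to 11.98%. Without vehicle 64 this difference passed (-5.01 points, exact permutation, adjusted p = 0.0265). The 3 differences that passed had adjusted exact permutation p-values above 0.05 against either part of the vehicle group. The mitochondrial share also lost the call without vehicle 32, 33, 34 or 63 (3.86 to 5.33 points over all single libraries left out). The other pair lost it without any of these and without AP20187 59, 60 or 62, and the share of the top 100 genes also without AP20187 58.

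The share of genes that passed grew with their level. Below a mean of 1 CPM, 2.47% of 6562 genes were higher and 2.35% lower. Between 10 and 100 CPM the shares were 17.6% and 17.5% of 9053 genes. Among the 2001 genes at 100 CPM or more, 17.0% were higher and 24.6% lower, so that lower calls outnumbered higher ones in this class. Gene span gave another pattern: of 2471 genes spanning 100 kb or more, 10% were higher and 22.5% lower, with a median log2 fold change of -0.47. Below 10 kb the median was 0.00, with 7.73% higher and 7.51% lower. Restricting to genes at 10 CPM or more left the long genes at 13.3% higher and 26.3% lower (median -0.42).

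**Figure D2:**
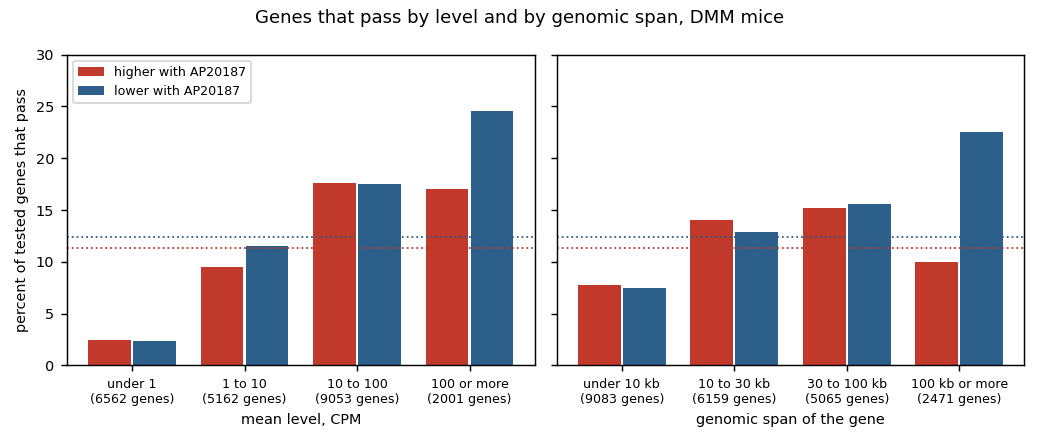
Percent of tested genes that pass in each direction by mean level over the 10 DMM libraries (left) and by genomic span (right), with the share over all tested genes as dotted lines (11.3% higher, 12.4% lower). The bars of lower genes are tallest in the highest level class (24.6%) and the longest span class (22.5%).

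Among abundant genes, the largest increase was that of Lipg, endothelial lipase (chromosome 18, 75072393 to 75094334, minus strand, GRCm39). It was at 415, 243, 273, 231 and 541 CPM in AP20187 libraries 58 to 62 and at 3.55, 2.73, 1.86, 2.77 and 1.0 CPM in vehicle libraries 32, 33, 34, 63 and 64. Every AP20187 library stood far above every vehicle library, and the log2 fold change was 7.16 (SE 0.43, adjusted p = 2.23e-08). It was 7.54 against vehicle 63 and 64 and 6.97 against the other vehicle mice. Ggt1, a gamma-glutamyltransferase of glutathione breakdown (chromosome 10, 75397438 to 75422034, plus strand), was of lower level, at 60.9, 31.9, 51.3, 40.3 and 68.3 CPM against 0.509, 0.627, 0.59, 1.34 and 0.868 CPM. Its log2 fold change was 6.0 (SE 0.37, adjusted p = 2.23e-08), again with no overlap.

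The other abundant genes with the largest increases were Ifitm1 (log2 fold change 5.52, SE 0.522), Lrg1 (4.72, SE 0.592), Ifitm6 (4.17, SE 0.641) and Prtn3, a serine protease of granulocyte precursors (3.92, SE 0.727). The Ifitm genes form a family of similar sequence in which reads may be split between copies. In the class with a mean of 10 to 100 CPM, which holds Ggt1, Nos2, the inducible nitric oxide synthase, was at 20.8 to 59.6 CPM with AP20187 and at 0 in 4 of 5 vehicle libraries, with 0.308 CPM in vehicle 32. Cxcl13, a chemokine that attracts B cells, was at 59.6, 57.1, 37.9, 10.1 and 40.7 CPM with AP20187 and at 0.179 to 0.524 CPM with vehicle (log2 fold change 6.87, SE 0.679, adjusted p = 1.09e-05). Prss16 (5.07, SE 0.609) and Asprv1 (4.88, SE 0.593) completed the 5 of this class. These 5 and the 5 abundant genes passed against each part of the vehicle group.

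The largest decreases of abundant genes did not separate the groups as cleanly. The alpha globin genes Hba-a2 and Hba-a1, whose reads may be shared between the near-identical copies, fell by 2.08 and 2.06 on the log2 scale. Hba-a2 was at 232 to 885 CPM with AP20187 and at 300, 448, 1280, 2300 and 5230 CPM in vehicle libraries 32, 33, 34, 63 and 64, so vehicle 32 and 33 lay in the AP20187 range. Without vehicle 64 the log2 fold change of Hba-a2 was -1.25 and did not pass (adjusted p = 0.0911), and single AP20187 libraries left out also ended the call. Slc4a1, the red cell anion exchanger, fell by 1.96, with -1.78 and no call without AP20187 62 (adjusted p = 0.054), and Map1a, a microtubule-associated protein of neurons, by 1.91. Scn11a, the sodium channel Nav1.9 of small sensory neurons, was at 13.3, 85.9, 80.4, 230 and 90.0 CPM against 425, 777, 484, 253 and 95.9 CPM (log2 fold change -2.03, SE 0.61, adjusted p = 0.0242). Its log2 fold change was -0.77 (adjusted p = 0.611) against vehicle 63 and 64 alone, and that of Map1a was -0.13 (adjusted p = 0.964). Scn11a and Map1a lost the call without vehicle 33 (-1.65, adjusted p = 0.0734, and -1.37, adjusted p = 0.167). Scn11a also lost it without AP20187 59, 60 or 62, and Map1a without most other single libraries.

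In the class of 10 to 100 CPM the decreases with the largest fold were Myl1 (-4.95), Tnnc2 (-3.76), Tnni2 (-3.31) and Mylpf (-2.82), all of skeletal muscle, and Apol11b (-3.03). Myl1 was at 212 CPM in vehicle 32 and at 1.04 to 35.3 CPM in the other vehicle libraries, against 0.243 to 4.14 CPM with AP20187. All 4 muscle genes were highest in vehicle 32 and overlapped between groups. Without that library the log2 fold changes of Myl1, Tnnc2, Tnni2 and Mylpf were -2.83, -1.57, -1.17 and -0.56, and none passed. Apol11b was highest in vehicle 64, at 65.1 CPM, and had -1.83 without it (adjusted p = 0.0279). Of 15 skeletal muscle genes tested, 5 fell and 1 rose.

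**Figure D3:**
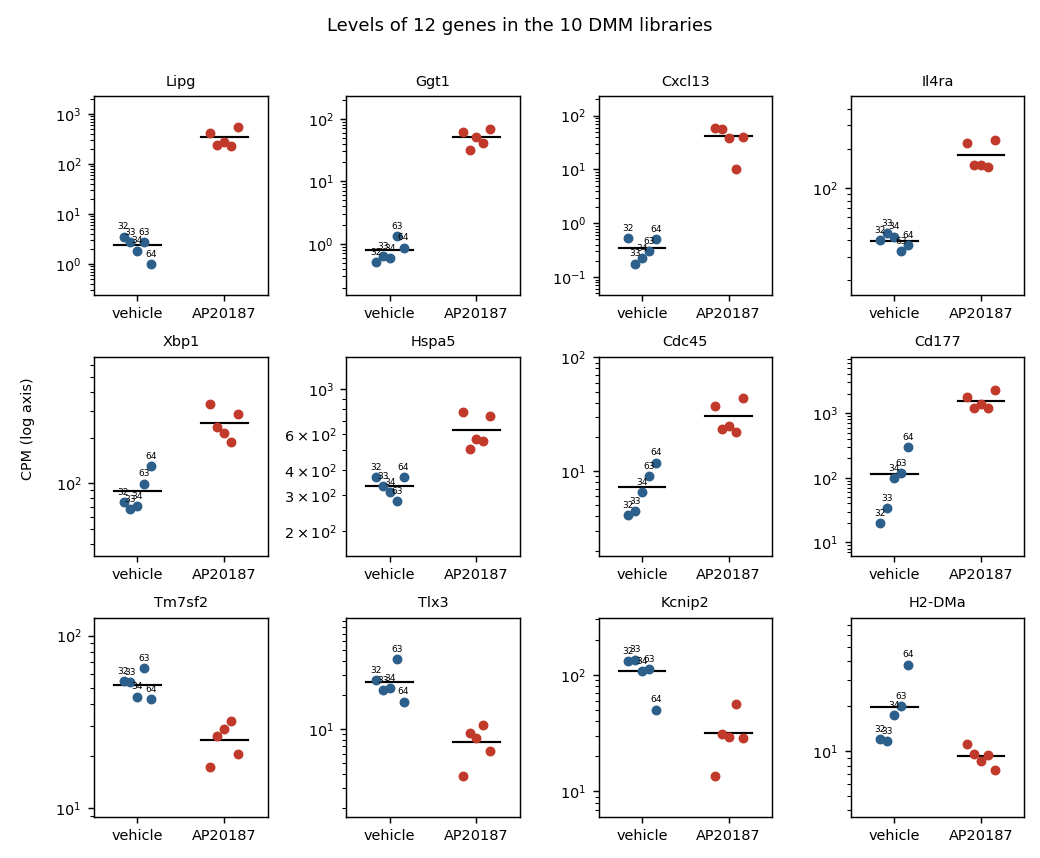
Level of 12 genes in the 10 DMM libraries (CPM, log axis); points are libraries, vehicle libraries carry their number and black lines are group means. Lipg, Ggt1, Cxcl13 and Il4ra do not overlap between groups, and Cd177 and Cdc45 do not either but are higher in vehicle 63 and 64 than in the other 3 vehicle libraries.

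Genes of the unfolded protein response were higher, with like medians against both parts of the vehicle group. This pathway raises chaperones and export factors when unfolded protein collects in the endoplasmic reticulum. Many of its targets carry the endoplasmic reticulum stress element, which is CCAAT, then 9 bases of any kind, then CCACG, upstream of their start site. Of 24 tested members 14 rose and 1 fell (median log2 fold change 0.58). Measured against vehicle 63 and 64, 8 rose and 1 fell (median 0.64), and against 32, 33 and 34, 15 and 1 (median 0.52). There were 7 that rose in all 3 fits. The wider KEGG set of protein processing in the endoplasmic reticulum did not share this median: of 162 genes 34 rose (21%) and 24 fell (14.8%), with medians of -0.05, 0.06 and -0.10 in the 3 fits.

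The element was searched on both strands of the RefSeq promoter windows (GRCm38.p6), 250 bases before to 50 after the start. Of the 22 members with a window, 8 held it (36.4%), against 37 of 27025 genes with a window (0.137%). These were Calr, Canx, Creld2, Dnajc3, Ero1b, Hsp90b1, Hspa5 and Pdia6, and 6 of them rose. Canx and Ero1b had log2 fold changes of -0.06 (adjusted p = 0.841) and -0.12 (adjusted p = 0.556). The promoters of 5 that rose are shown because they carry the same element at different distances from the start. Capitals mark the element, which contains a CCAAT box and reads as its complement where it lies on the other strand. 

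Hspa5 (chr2:34771960-34772089, plus strand): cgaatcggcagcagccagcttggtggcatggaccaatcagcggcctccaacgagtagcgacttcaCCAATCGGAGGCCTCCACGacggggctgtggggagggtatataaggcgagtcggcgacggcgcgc
Calr (chr8:84847012-84847131, minus strand): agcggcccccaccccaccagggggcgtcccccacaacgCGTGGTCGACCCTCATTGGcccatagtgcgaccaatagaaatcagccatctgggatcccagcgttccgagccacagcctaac
Creld2 (chr15:88819476-88819585, plus strand): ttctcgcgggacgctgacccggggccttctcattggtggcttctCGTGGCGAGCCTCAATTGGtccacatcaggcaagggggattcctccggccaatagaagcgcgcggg
Hsp90b1 (chr10:86705505-86705684, minus strand): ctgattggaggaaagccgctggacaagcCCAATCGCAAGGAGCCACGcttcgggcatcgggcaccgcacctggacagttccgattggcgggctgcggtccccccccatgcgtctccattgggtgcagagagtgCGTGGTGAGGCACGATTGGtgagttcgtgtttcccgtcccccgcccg
Pdia6 (chr12:17266449-17266548, plus strand): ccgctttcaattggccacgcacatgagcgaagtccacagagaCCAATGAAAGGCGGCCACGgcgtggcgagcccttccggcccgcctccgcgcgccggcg

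Hspa5, the chaperone BiP of the endoplasmic reticulum, was at 772, 510, 570, 558 and 741 CPM in AP20187 libraries 58 to 62 and at 370, 332, 310, 281 and 368 CPM in the vehicle libraries. Its log2 fold change was 0.92 (SE 0.15, adjusted p = 0.000624), with no overlap and values of 0.97 and 0.90 against the 2 parts of the vehicle group. Calr, the lectin chaperone calreticulin, had a log2 fold change of 0.94 (SE 0.146). Hsp90b1, with 2 copies of the element, was at 731 ± 88.6 CPM against 463 ± 65.2 CPM (SD, n = 5 each). Creld2 had a log2 fold change of 1.41, but 0.85 (adjusted p = 0.163) against vehicle 63 and 64.

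Xbp1 encodes the transcription factor that carries the signal of this pathway, and is also needed by secretory blood cells. It was at 333, 236, 215, 186 and 285 CPM against 75.3, 67.7, 70.9, 99.7 and 130 CPM, with no overlap (log2 fold change 1.5, SE 0.197, adjusted p = 0.00012). Edem1, which feeds misfolded glycoproteins into degradation, went from 54.1 ± 14.3 to 179 ± 47.3 CPM (log2 fold change 1.72, SE 0.228). Ddit3, the factor CHOP of the arm that leads to cell death, fell by 0.64 on the log2 scale (SE 0.163, adjusted p = 0.0101). Atf4, Trib3 and Atf3, of the same arm, had log2 fold changes of 0.00, 0.04 and 0.11 and did not pass.

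Genes of DNA replication and mitosis were higher. Of 30 tested genes for the minichromosome maintenance helicase, the origin complex and the DNA polymerases, 24 rose and none fell (median log2 fold change 1.22). The median was 0.75 and 2 rose against vehicle 63 and 64, and against 32, 33 and 34 it was 1.65 and 29 rose. In the KEGG annotation of the authors' table, 22 of 35 DNA replication genes and 52 of 121 cell cycle genes rose, and 0 and 5 fell. These were 1 and 9 that rose against vehicle 63 and 64, and 0 and 2 that fell. Of the centromere proteins, 21 of 30 rose and none fell, with a median of 1.29, but 2 rose and 1 fell against vehicle 63 and 64 (median 0.91).

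Cdc45, which joins the replicative helicase, was at 37.1, 23.4, 25.0, 21.9 and 43.9 CPM against 4.12, 4.48, 6.54, 9.04 and 11.9 CPM (log2 fold change 2.07, SE 0.345, adjusted p = 0.000764). The groups did not overlap, and vehicle 63 and 64 were the highest vehicle libraries. Pole, the leading-strand polymerase, had a log2 fold change of 1.44 (SE 0.237) and passed against both vehicle parts. Mcm4, a helicase subunit, went from 27.6 ± 9.19 to 68.8 ± 18.6 CPM and missed the threshold against vehicle 63 and 64 (adjusted p = 0.116). Of 36 kinesins, microtubule motors, 13 rose and 5 fell (2 and 0 against vehicle 63 and 64), and the mitotic Kif20b rose with a log2 fold change of 2.65 (SE 0.348). Cenpe, a kinetochore motor, had 2.54 and Ccnb1, cyclin B1, 3.04. Cdk15 fell by 1.68. Of 22 nucleotide synthesis genes 9 rose, though none against vehicle 63 and 64, among them the ribonucleotide reductase subunits Rrm1 (1.86, SE 0.321) and Rrm2 (2.26, SE 0.557).

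Sites for E2F, the factor family that switches on replication genes, were searched in the same promoter windows as TTTCGCGC, TTTGGCGC and TTTCCCGC on both strands. Of 24 replication genes with a window, 13 held at least 1 of the sites (54.2%), against 573 of 27025 genes (2.12%). Of all tested genes with a window 3.4% held one, with 6.34% of those that rose and 2.1% of those that fell. A promoter stretch of each of 3 helicase subunits is shown because the marked sites differ in number and, in Mcm5 and Mcm6, overlap. That of Mcm7 holds 1 marked site, and a TTTCGCGC site of this gene lies outside the stretch shown. Mcm5, Mcm6 and Mcm7 had log2 fold changes of 2.08 (SE 0.466), 1.55 (SE 0.405) and 1.41 (SE 0.384) against all vehicle mice, and did not pass against vehicle 63 and 64. Capitals mark the E2F letters, and overlapping sites run together.

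Mcm5 (chr8:75109319-75109418, plus strand): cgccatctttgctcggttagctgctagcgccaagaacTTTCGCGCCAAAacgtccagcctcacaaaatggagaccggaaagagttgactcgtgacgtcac
Mcm6 (chr1:128359726-128359845, minus strand): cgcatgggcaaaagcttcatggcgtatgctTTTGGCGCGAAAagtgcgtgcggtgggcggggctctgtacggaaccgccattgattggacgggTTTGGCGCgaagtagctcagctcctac
Mcm7 (chr5:138171984-138172083, minus strand): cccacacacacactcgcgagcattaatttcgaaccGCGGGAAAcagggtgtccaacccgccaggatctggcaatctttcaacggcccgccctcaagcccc

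Of 20 granule protein genes of neutrophils and their precursors, 17 rose and none fell (median log2 fold change 3.07). There were 9 that rose against vehicle 63 and 64 (median 2.1) and 20 against the other vehicle mice (median 4.49). Cd177, a neutrophil surface protein, was at 1810, 1190, 1390, 1210 and 2260 CPM against 20.1, 33.9, 98.7, 117 and 299 CPM (log2 fold change 3.79, SE 0.606, adjusted p = 0.000554). All AP20187 libraries were above all vehicle libraries, and vehicle 64 was nearest. Ms4a3, expressed in granulocyte and monocyte precursors, had a log2 fold change of 3.11 (SE 0.398), Chil3 of 3.91 (SE 0.645) and Ctsg, cathepsin G, of 4.15 (SE 0.687). These genes moved with the neutrophil and precursor markers given above, of which several are members of both lists.

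Interleukins and their receptors rose in 17 of 66 (25.8%, against 11.3% over all genes) and fell in none (against 12.4%), with a median of 0.37. In the restricted fits 5 rose and 2 fell against vehicle 63 and 64 (median 0.14), and 23 rose and 2 fell against 32, 33 and 34 (median 1.03). Over all genes 2.71% rose and 2.02% fell in the first of these fits, and 17.5% and 18.8% in the second. Il4ra, the receptor chain shared by interleukin 4 and interleukin 13, was at 220, 150, 151, 145 and 233 CPM against 40.4, 45.2, 42.8, 33.0 and 36.6 CPM. The vehicle libraries lay close together, and the log2 fold change was 2.18 (SE 0.18, adjusted p = 2.11e-06), with 2.39 and 2.07 against the 2 parts. Il1r1, the signalling receptor of interleukin 1, had 1.74 (SE 0.208) and was likewise even across vehicle mice, at 11.6 to 15 CPM, while AP20187 libraries were at 32.1 to 54.7 CPM. Il1r2, the decoy receptor, went from 6.28 ± 6.16 to 149 ± 68.8 CPM.

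Of 25 NF-kappaB target genes 13 rose (52%, against 11.3% over all genes) and 1 fell (4%, against 12.4%), with a median of 1.18. Against vehicle 63 and 64, 4 rose and 1 fell (median 0.90). Nfkbiz, a regulator of this pathway, was at 22.4 to 30.3 CPM against 5.64 to 11.6 CPM (log2 fold change 1.73, SE 0.255), and Tnf had 3.29 (SE 0.547). Complement genes rose in 9 of 21 (42.9%) and fell in none (median 1.16). C3, the central complement protein, was at 634 to 1230 CPM against 26.5 to 219 CPM (log2 fold change 3.31, SE 0.507), and Cfb, of the alternative pathway, had 2.05 (SE 0.382). Only 1 complement gene rose against vehicle 63 and 64 alone. Of 8 Schlafen genes, regulators of myeloid and lymphoid cells with closely related sequences, 5 rose and 1 fell (2 and 1 against vehicle 63 and 64), with Slfn4 at 3.80 (SE 0.549). C-type lectins rose in 6 of 26 (23.1%) and fell in none, and 2 rose and 1 fell against vehicle 63 and 64. Clec5a was among those that rose (3.81, SE 0.587).

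Chemokines and their receptors rose in 9 of 57 (15.8%, against 11.3% over all genes) and fell in 3 (5.26%, against 12.4%). There were 5 that rose and 3 that fell against vehicle 63 and 64, with a median of -0.13. Ccl8 was at 78.1, 67.6, 47.5, 18.2 and 5.84 CPM with AP20187 and at 1.36 to 4.04 CPM with vehicle (log2 fold change 4.10, SE 0.751). Ccl24, an attractant of eosinophils, had no counts in any AP20187 library and 0.224 to 2.58 CPM with vehicle. With the floor set at 3 counts per library, 0.0462 CPM on average, it was at least 19.1-fold lower, and at least 9.94-fold lower without vehicle 64, the library at 2.58 CPM. These limits cover counting error only.

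Class II antigen presentation went the other way, with 7 of 11 genes lower and none higher (median -1.81). H2-DMa, which loads peptides onto class II molecules, was at 11.1, 9.62, 8.62, 9.44 and 7.42 CPM against 12, 11.6, 17.4, 19.9 and 37.9 CPM (log2 fold change -1.10, SE 0.274, adjusted p = 0.00945). The groups did not overlap but nearly met at vehicle 33. Cd74, the invariant chain, fell by 1.81 (SE 0.541) but by 1.3 without vehicle 64 (adjusted p = 0.0552), and H2-DMa had -0.72 without that library (adjusted p = 0.0151). Against vehicle 63 and 64 the list had 6 lower genes and a median of -2.51, against 32, 33 and 34 none passed in either direction (median -0.82). Early B lineage markers summed to 0.5849 to 1.483 CPM against 3.099 to 56.21 CPM. Of 119 immunoglobulin entries 9 rose (7.56%, against 11.3% over all genes), Ighg3 among them, and 2 fell, Ighd among them. None rose and 2 fell against vehicle 63 and 64, and 18 rose and 1 fell against the others. Ighg3 was at 44.5 CPM in AP20187 59 and at most 6.7 CPM elsewhere, and such segments share sequence.

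Globin and heme synthesis genes fell in 10 of 18 (median -1.21). They fell in 12 against vehicle 63 and 64 (median -2.0), and against 32, 33 and 34 1 fell and 1 rose (median -0.39). Fech, which inserts iron into protoporphyrin to form heme in all cells, was the member that fell in all 3 fits. It was at 55.6 to 76.4 CPM against 80.4 to 169 CPM (log2 fold change -0.85, SE 0.195).

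Glycolysis genes went both ways. Of 23 entries 8 rose (34.8%, against 11.3% over all genes) and 6 fell (26.1%, against 12.4%), with a median of 0.08. Against vehicle 63 and 64, 4 rose and 2 fell. The wider KEGG set of glycolysis and gluconeogenesis leaned lower: of 60 genes 10 rose (16.7%) and 18 fell (30%), with a median of -0.27. Of these 60, 3 rose and 4 fell against vehicle 63 and 64 (median -0.30), and 13 rose and 17 fell against the others (median -0.27). Slc2a3, the glucose carrier GLUT3, was at 292, 206, 261, 234 and 366 CPM against 92.7, 115, 110, 82.0 and 111 CPM (log2 fold change 1.41, SE 0.177, adjusted p = 8.09e-05), with no overlap and 1.51 and 1.36 against the vehicle parts. Pfkfb4, which makes the activator of phosphofructokinase, had 1.65 (SE 0.211) and Hk3, a hexokinase of myeloid cells, 2.87 (SE 0.559). Pfkm, the muscle-type phosphofructokinase that neurons also express, fell by 1.44 (SE 0.296) but not against vehicle 63 and 64 (adjusted p = 0.114). Of 339 solute carriers, 32 rose (9.44%, against 11.3% over all genes) and 63 fell (18.6%, against 12.4%). Of these carriers 12 rose and 10 fell against vehicle 63 and 64. Slc22a15 (1.52, SE 0.188) and the monocarboxylate carrier Slc16a6 (1.62, SE 0.216) passed against both vehicle parts.

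Endothelial genes rose in 6 of 15 (40%, against 11.3% over all genes) and all 15 had positive values (median 0.81). Of the 15, 1 rose against vehicle 63 and 64. Besides Lipg these included Emcn, the endothelial mucin endomucin, at 30.3 to 62.5 CPM against 9.40 to 24.5 CPM (log2 fold change 1.40, SE 0.346), and Vwf, von Willebrand factor, which platelets also carry (2.05, SE 0.556). Neither of these passed against vehicle 63 and 64. Megakaryocyte markers summed to 91.55 to 296.8 CPM with AP20187 and 12.51 to 176.3 CPM with vehicle.

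Of the 89 lists, cholesterol synthesis had the largest share of genes that fell. Of 23 genes for the synthesis of cholesterol and its control, 19 fell and none rose (median -0.86), and Ebp alone had a value above 0 (0.15, adjusted p = 0.49). The decrease was spread along the route, from Hmgcs1 (-1.38) at its start through Mvk (-0.99), Pmvk (-0.77) and Nsdhl (-1.03) to Dhcr7 (-1.53) at its end. Insig1, which holds the sterol sensor in the endoplasmic reticulum, was at 34.7 to 74.9 CPM against 61.5 to 110 CPM (log2 fold change -0.87, SE 0.189).

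Tm7sf2, a sterol reductase, was at 17.4, 26.3, 28.6, 32.2 and 20.5 CPM against 54.2, 53.8, 44.3, 64.6 and 42.8 CPM. The groups did not overlap, and the log2 fold change was -1.05 (SE 0.219, adjusted p = 0.00341), with -1.06 and -1.02 against the parts. It was the single gene of the list that passed in all 3 fits. Against vehicle 63 and 64 the median of the list was -0.53 and 1 of the 23 genes was lower, and against the others the median was -1.04 and 21 were lower.

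Of the 16 cholesterol genes with a promoter window all held a CCAAT box, against 41.1% of 27025 genes. Among tested genes with a window, 44% of those that rose and 42.2% of those that fell held a CCAAT box. Of the 16, 1, Hmgcs1, held the sterol regulatory element TCACNCCAC (6.25% against 1.44%). The promoter of Tm7sf2 is shown as the member that passed in all 3 fits, with the CCAAT box in capitals as its complement.

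Tm7sf2 (chr19:6067851-6067980, minus strand): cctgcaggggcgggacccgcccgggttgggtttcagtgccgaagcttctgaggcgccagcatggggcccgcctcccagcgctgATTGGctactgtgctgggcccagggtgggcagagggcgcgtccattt

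Several ion channel families had more lower genes than the 12.4% over all genes. Voltage-gated potassium channels and relatives fell in 30 of 87 and rose in 3 (median -1.12), sodium channels fell in 5 of 14 and calcium channels in 8 of 26 (medians -1.40 and -1.14). Transient receptor potential channels fell in 8 of 20 and rose in 1 (median -0.98). Against vehicle 63 and 64 the numbers that fell were 2, 0, 0 and 1. The medians were -0.17, -0.04, -0.11 and -0.19 in that fit, and -1.51, -1.87, -1.52 and -1.26 against 32, 33 and 34. Receptor families varied: nicotinic and muscarinic receptors fell in 6 of 17 and glutamate receptors in 6 of 26 (35.3% and 23.1%). GABA and glycine receptors (3 of 24, 12.5%), serotonin, dopamine and adrenergic receptors (3 of 27, 11.1%) and Mrgpr receptors (2 of 14, 14.3%) were near the share over all genes. In the order named, the medians of these receptor families were -1.34, -0.79, -0.57, -1.24 and -0.54. Against 32, 33 and 34 the numbers that fell were 9, 14, 9, 11 and 3, and those that rose 0, 1, 0, 1 and 0. In that fit 18.8% of all genes fell. No gene of these receptor families fell against vehicle 63 and 64. Summed over the family, potassium channels took 0.0765% to 0.262% of counts with AP20187, 0.431%, 0.565% and 0.465% in vehicle 32, 33 and 34, and 0.253% and 0.151% in vehicle 63 and 64.

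Kcnip2, a subunit of A-type potassium channels, was at 13.7, 31.1, 29.3, 56.4 and 28.9 CPM against 131, 135, 108, 112 and 50.2 CPM (log2 fold change -1.75, SE 0.346, adjusted p = 0.00243). AP20187 61 was above vehicle 64, and the other libraries did not overlap. Kcnk13 fell by 1.30 (SE 0.254), while Kcnk6, another two-pore channel, rose with 2.47 (SE 0.385). Among sodium channel subunits Scn3b fell by 1.42. Among calcium channels Cacna1i fell by 1.71 and Cacnb3 by 1.39. Both calls were lost without vehicle 33 (-1.36, adjusted p = 0.068, and -1.24, adjusted p = 0.064). Cacna1i also lost the call without AP20187 58, and Cacnb3 without AP20187 58, 60 or 62 or vehicle 32 or 34. Trpv2, a channel of large sensory neurons and macrophages, fell by 0.92. P2rx3, the ATP receptor of nociceptors, was at 20.5 to 110 CPM against 62.4 to 285 CPM (-1.74, SE 0.449), while P2rx1, of platelets and myeloid cells, rose with 2.17 (SE 0.557). Neither passed against vehicle 63 and 64, with -0.90 for P2rx3 (adjusted p = 0.363) and 1.2 for P2rx1 (adjusted p = 0.184). Of the 17 P2X, acid-sensing, HCN and Piezo channels 4 fell and 1 rose, none passed against 63 and 64, and 11 fell and 2 rose against 32, 33 and 34. Of the channel genes from Kcnip2 to Trpv2 named above, Kcnk6 alone passed against vehicle 63 and 64 (1.84, adjusted p = 0.0372), and Kcnip2 had -1.31 there (adjusted p = 0.0823).

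Other neuronal families were lower too, mainly against vehicle 32, 33 and 34. Synaptotagmins and SNARE proteins, the machinery of vesicle release, fell in 25 of 65 and rose in 8 (median -0.88). None fell and 2 rose against vehicle 63 and 64 (median -0.22), and 39 fell and 11 rose against the others. Syt5 was at 14.3 to 33.9 CPM against 34.4 to 69.8 CPM, without overlap (-1.28, SE 0.276), and Stxbp2, used by granulocytes for granule release, rose with 2.34 (SE 0.403). Neurofilaments, stathmins and tubulins fell in 15 of 28 and rose in 1, and in 1 each against vehicle 63 and 64 (median -0.52): Tuba1a fell by 1.0 and Tubb2b by 1.45, while Tuba8 rose with 2.23. In the KEGG annotation 33 of 80 insulin secretion genes, a set rich in channels and release proteins, and 42 of 110 cholinergic synapse genes fell, against 5 and 16 that rose. With vehicle 63 and 64 as controls 4 and 2 of them fell, and 1 and 4 rose.

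Transcription factors and receptors that define sensory neurons fell in 10 of 15 and rose in none (median -1.29). Of the 15, 1 fell against vehicle 63 and 64 (median -0.54) and 12 against 32, 33 and 34 (median -1.60). Tlx3, a factor of sensory neuron development, was at 3.8, 9.2, 8.3, 10.9 and 6.32 CPM against 27.1, 21.9, 22.9, 41.7 and 17.4 CPM. No AP20187 library reached a vehicle library (log2 fold change -1.77, SE 0.351, adjusted p = 0.00251), and values of -1.89 and -1.64 held against the 2 parts. Prdm12, a regulator of nociceptors, fell by 1.67 (SE 0.491) with overlap at vehicle 64, and the receptor Ntrk2 by 0.65 (SE 0.184), but without vehicle 33 neither passed (-1.48, adjusted p = 0.0567, and -0.54, adjusted p = 0.0568). Protocadherins, adhesion proteins by which neurons tell self from other, fell in 17 of 69 and rose in none (median -1.0). None of them passed against vehicle 63 and 64 (median -0.17). Pcdha12 fell by 3.15 and Pcdhga7 by 1.64, and the clustered genes share exons so that reads may be split.

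Schwann cell and myelin genes fell in 7 of 18 (median -0.62), with 2 against vehicle 63 and 64 (median -0.88) and 5 against the others (median -0.48). Pmp2, a lipid-binding protein of myelin, was at 18.2, 22.0, 17.9, 25.5 and 12.9 CPM against 61.5, 31.6, 42.7, 62.7 and 112 CPM (log2 fold change -1.68, SE 0.344, adjusted p = 0.00302), without overlap. Pmp22 fell by 0.83 and the factor Sox10 by 0.77, and AP20187 61 was within the vehicle range for both. Pmp22 lost the call without AP20187 58 (-0.71, adjusted p = 0.0553). Summed myelinating Schwann markers were 4741 CPM in AP20187 61 and 1621 to 2293 CPM in the other AP20187 libraries, against 3066 to 5216 CPM with vehicle.

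**Figure D4:**
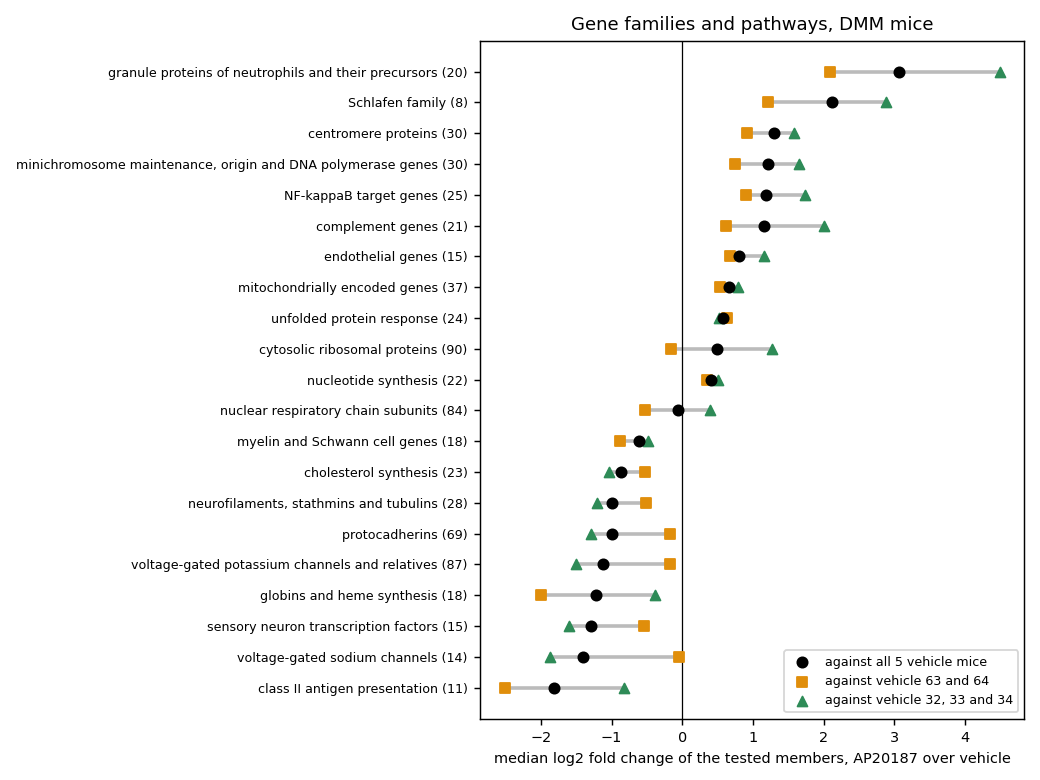
Median log2 fold change (AP20187 over vehicle) of the tested members of 21 families and pathways, with the number of members in brackets, against all 5 vehicle mice (black circles), vehicle 63 and 64 (orange squares) and vehicle 32, 33 and 34 (green triangles). The 3 values lie close for the unfolded protein response (0.52 to 0.64) and far apart for ribosomal proteins (-0.16 to 1.27) and sodium channels (-1.87 to -0.04).

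Transcript families of housekeeping function were divided. All 37 genes of the mitochondrial genome had positive log2 fold changes, 11 rose and none fell (median 0.66), and the median was 0.54 and 0.79 against the vehicle parts. None of the 37 passed against vehicle 63 and 64, and 14 rose against 32, 33 and 34. The cytochrome oxidase subunit mt-Co1 was at 33900, 51800, 42400, 36200 and 54700 CPM against 28100, 17200, 19000, 27300 and 27800 CPM, with no overlap (log2 fold change 0.88, SE 0.238, adjusted p = 0.0149). It had 0.69 against vehicle 63 and 64 (adjusted p = 0.212). The complex I subunit mt-Nd5 had 0.77 (SE 0.221), with AP20187 58 at 4990 CPM within the vehicle range of 4070 to 6180 CPM, whose upper end AP20187 61 met. Without AP20187 62 it did not pass (0.64, adjusted p = 0.056). Of 84 nuclear genes for respiratory chain subunits 5 fell and none rose, with a median of -0.06. That median turned with the vehicle mice, at -0.52 (4 fell, none rose) against 63 and 64 and 0.40 (9 rose, 4 fell) against 32, 33 and 34. Whether the 2 families differ was not tested.

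Cytosolic ribosomal proteins turned with the choice of vehicle mice. Against all 5, 1 of 90 rose and 1 fell (median 0.49). Against 32, 33 and 34, 79 rose and 1 fell (median 1.27), and against 63 and 64 none passed (median -0.16). As a share of counts they took 2.79%, 2.27%, 2.52%, 1.74% and 1.94% in AP20187 libraries 58 to 62. In vehicle 32, 33 and 34 they took 1.1%, 0.733% and 0.97%, and in 63 and 64 2.19% and 2.97%. Ribosome biogenesis factors rose in 7 of 26 and fell in none, but none of the 26 passed against vehicle 63 and 64. In the wider KEGG set of eukaryotic ribosome biogenesis 13.2% of 76 rose, near the 11.3% over all genes, and 6.58% fell. Members of the shorter list included the helicase Ddx21 at 0.68 (SE 0.154) and nucleolin, Ncl, at 0.49 (SE 0.138), a call that was lost without AP20187 62 (0.41, adjusted p = 0.0509).

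Of 391 zinc finger genes 42 were higher (10.7%, against 11.3% over all genes) and 26 lower (6.65%, against 12.4%), with a median of -0.04. Proteasome subunits fell in 2 of 48 (4.17%), Hox genes in 6 of 30 (20%), and none of 37 replication-dependent histone genes passed, transcripts that a poly(A) library captures poorly. Of 1547 processed pseudogenes 5.11% were higher and 1.55% lower (median 0.27), both below the shares over all genes, and their reads may come from the parent gene. Long noncoding RNAs passed in 4.65% and 3.95% of 3288, against 13.8% and 16% of 16577 protein-coding genes.

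Whether the drug difference depended on surgery was asked by the interaction, the AP20187 difference in DMM mice minus that in naive mice. It passed for 26 genes (0.114% of those tested), 11 with the higher value in DMM and 15 with the lower, and 1748 genes had an unadjusted p under 0.05. None of the genes named above was among them, and a missed threshold does not show that the differences were equal. Lipg had a log2 fold change of 5.86 in naive mice and Il4ra one of 1.47. The median of the skeletal muscle list was 3.67 in naive mice and -2.82 in DMM mice, where it was -0.56 without vehicle 32 and -1.31 against vehicle 63 and 64.

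Most of the 26 genes were set apart by the naive AP20187 mice. Gad1, which makes the transmitter GABA, was at 0.623 to 2.45 CPM in naive mice with AP20187. All other libraries were higher, from 5.98 to 7.57 CPM after DMM and AP20187, 6.23 to 8.84 CPM after DMM and vehicle, and 4.82 to 8.23 CPM in vehicle-treated naive mice. Slc6a5, Cnpy1, Gabra6 and Ppp1r17, genes of the central nervous system, had no counts in any of the 4 naive AP20187 libraries and 0.204 CPM or more in every DMM library. Pvalb, the calcium buffer parvalbumin of muscle and of some neurons, was at 38.9 to 63.7 CPM in AP20187-treated DMM mice and at 164 to 284 CPM in AP20187-treated naive mice. In vehicle-treated DMM mice it was at 38.5 to 174 CPM, and vehicle 32, the highest, lay in the range of the AP20187-treated naive mice. Gpnmb, a glycoprotein of phagocytes, was at 15.1 to 28.1 CPM in AP20187-treated DMM mice and at 72.7 to 99.1 CPM in AP20187-treated naive mice.

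For Myh6, the alpha heavy chain of heart myosin, DMM with AP20187 stood apart. It was at 3.05, 4.14, 4.24, 3.7 and 4.16 CPM there, at 0.707 to 1.36 CPM in vehicle-treated DMM mice and at 0.567 to 1.7 CPM in naive mice of both treatments. The log2 fold change was 1.88 in DMM and -0.83 in naive mice, and the difference of 2.71 passed (adjusted p = 0.00274). Hspb6, a small heat shock protein of muscle, fell by 1.09 in DMM mice and was higher by 1.30 in naive mice with AP20187 (difference -2.39, adjusted p = 0.00213). Without naive AP20187 library 5 the count of such genes was 57, without DMM AP20187 60 it was 12, and without DMM vehicle 32 it was 25, of which 21 were among the 26. It was between 12 and 17 without any one of the DMM AP20187 libraries, DMM vehicle 63, naive AP20187 1 or 3, or naive vehicle 1, 2, 4 or 5.

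**Figure D5:**
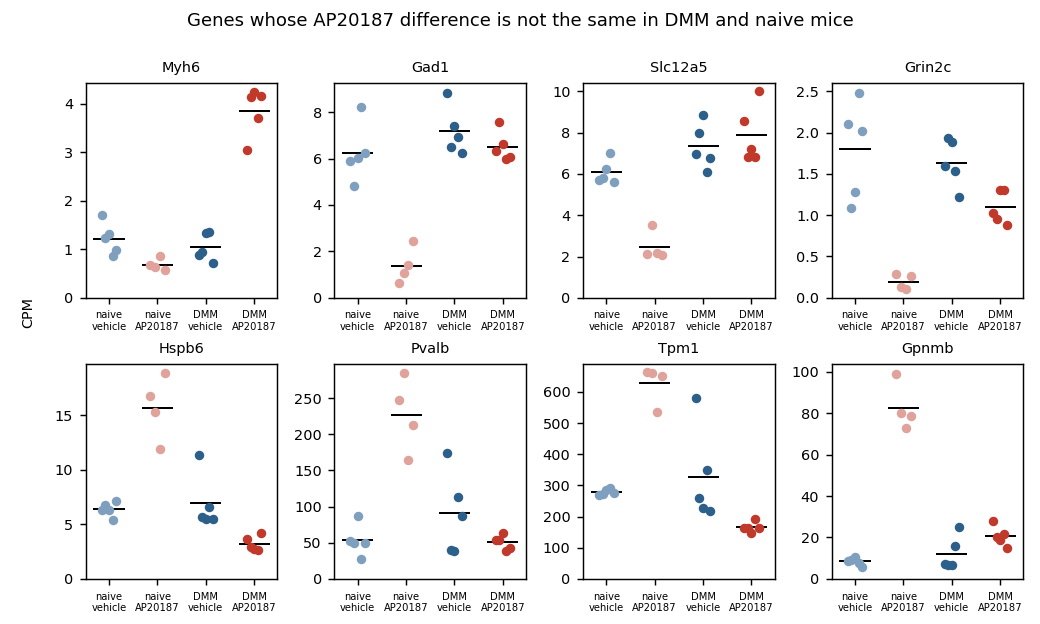
Level (CPM, axes from 0) of 8 of the 26 genes whose AP20187 difference was not equal in DMM and naive mice, by group; points are libraries and black lines means. Myh6 is high in DMM with AP20187 alone, while naive mice with AP20187 are low for Gad1, Slc12a5 and Grin2c and high for Hspb6, Pvalb, Tpm1 and Gpnmb. For Pvalb and Tpm1, DMM vehicle 32 lies within their range.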

How the data were processed

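The authors deposited counts per gene, whole numbers with no normalization, and FPKM for 36682 genes, with KEGG and transcript type annotation. Per the submitters' processing notes, cutadapt, HISAT2 and StringTie were used with GRCm39; versions and settings are not given in the sources used here. Gene positions are those of the authors' table. The counts were used for the main results, FPKM in 1 alternative, as log2(FPKM + 1). In edgeR 4.0.16 (R 4.3.3), genes passing filterByExpr (minimum count 10) were fitted as 4 groups over all 19 libraries, with TMM, the quasi-likelihood F test and Benjamini-Hochberg adjustment over 22778 genes. DESeq2 1.42.0 and limma 3.58.1 served as alternatives. Pathways and families (89 lists, 315 KEGG sets with at least 15 genes) are described by counts and medians. The members and lists were chosen with earlier results of these data known. Named genes were the 5 largest increases and 5 largest decreases that passed and had a gene symbol, at 100 CPM or more and at 10 to 100 CPM, up to 4 members of smallest p per list (with 3 or more passing), and Csf1r, Adgre1 and Cd68; others are named for their promoter or for completeness of a list and were chosen after their values were seen. The model was tested on simulated data. Some genes that these rules select are not reported here.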

Additional observations from a re-analysis of the deposited data

Results flagged for a closer look

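In 202 groups of 5 libraries, the highest or lowest library lay far from the other 4 in 14, where chance gives about 1 in 20. Of these, 5 were vehicle 32: it was high for the muscle genes Myl1 (212 CPM, others 1.04 to 35.3), Tnnc2 (92.8 CPM, others 0.484 to 14.2), Tnni2 (143 CPM, others 0.761 to 22.8) and Mylpf (120 CPM, others 1.58 to 12.8), and for Nos2 it was at 0.308 CPM with the others at 0. Another 6 were vehicle 64, which was high for Prtn3 (52.7 CPM, others 2.46 to 15), Asprv1 (11.6 CPM, others 0.879 to 2.51), Apol11b (65.1 CPM, others 2.19 to 16.3), Ccl24 (2.58 CPM, others 0.224 to 0.665) and Cfb (23.1 CPM, others 6.94 to 9.52), and low for Insig1 (61.5 CPM, others 96.9 to 110). Among AP20187 libraries, 58 was high for Apol11b (5.21 CPM, others 1.37 to 2.06), 59 for Ighg3 (44.5 CPM, others 0.15 to 6.7) and 62 for Mylpf (10.2 CPM, others 2.02 to 3.0).

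The AP20187 difference was not equal in DMM and naive mice for 26 genes by the interaction test. The log2 fold change in DMM minus that in naive was positive for Slc6a5 (8.47), Cnpy1 (8.67), Gabra6 (8.5), Ppp1r17 (7.27) and Serpinc1 (7.69), each without counts in naive AP20187 mice, so that these sizes depend on the prior count of the model. It was also positive for Cbln3 (3.89), Myh6 (2.71), Grin2c (2.6), Gad2 (2.1), Gad1 (2.02) and Slc12a5 (1.4). It was negative for muscle genes that include Klhl31 (-11.06), Hrc (-7.28), Myl3 (-5.55), Pgam2 (-5.01), Eno3 (-4.91), Actn2 (-3.83), Mypn (-3.59), Tnnc1 (-3.08), Asb2 (-2.7), Hspb6 (-2.39) and Tpm1 (-2.14), and for Pvalb (-2.94), Gpnmb (-2.54) and Lef1 (-2.29).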

How the results depend on the processing

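The count of 5410 genes was 1156 against vehicle 63 and 64, 8450 against 32, 33 and 34, 10676 with limma voom and 3212 to 7677 with 1 library left out (3212 without AP20187 58, 3407 without vehicle 33 and 3419 without vehicle 32). Higher and lower calls were 2391 and 1706 in the 10 DMM libraries alone, 2371 and 3247 without TMM and 1866 and 1346 without AP20187 58. The interaction count of 26 was 13 with no low count filter, 224 with DESeq2, and, in alternatives added after seeing the data, 90 against vehicle 63 and 64, 53 with voom and 56 on log2 FPKM. It was 12 to 57 with 1 library left out. Against vehicle 63 and 64 the composition differences were 2.79 points for the top 100 genes, 3.51 for mitochondrial genes, 0.689 for predicted or clone names, 0.054 for long genes and -238 genes at 1 CPM or more. Against 32, 33 and 34 they were 6.64, 5.31, 1.23, -6.38 and 166 in the same order. These small designs hardly allow a pass, since the smallest exact permutation p are 0.0476 and 0.0179 before adjustment. Leaving out 1 library gave 4.36 to 5.97, 3.86 to 5.33, 0.827 to 1.19, -5.01 to -2.74 and -85.6 to 95.6 in the same order. Entries unnamed in the other count table were part of the totals; leaving them out gave 1.02 for predicted or clone names, with an adjusted p of 0.0529. Csf1r turned positive with RLE factors (0.02), the 10 DMM libraries alone (0.05), vehicle 32 to 34 (0.84), DESeq2 (0.02), voom (0.68), log2 FPKM (0.01) and without 1 library (-0.21 to 0.44 over all libraries). Of 1919 values of 96 of the named genes over all settings, 137 lost and 5 gained the threshold and 10, those of Csf1r, changed sign. The other genes named in the text were not part of this count. The causes were not tested. No paired analysis was possible because the DMM groups share no replicate numbers, so that neither the main contrast nor the interaction can be blocked. The naive groups share some numbers, and whether these mark pairs is not stated. The number of mice and the uneven vehicle group limit precision.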

Other observations

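Enzymes that supply NADPH are described here; they, the interferon genes and the neuropeptides were chosen after their values were seen. G6pdx, the first enzyme of the pentose phosphate pathway, was at 836, 586, 655, 587 and 1110 CPM in AP20187 libraries 58 to 62 and at 68.7, 64.2, 91.6, 84.8 and 138 CPM in vehicle libraries 32, 33, 34, 63 and 64. Its log2 fold change was 3.08 (SE 0.281, edgeR adjusted p = 5.53e-06), with 2.76 and 3.33 against vehicle 63 and 64 and the other vehicle mice. Pgd, the next NADPH step, had 1.77 (SE 0.259), and Tkt of the same pathway 1.25 (SE 0.195). Me1, the malic enzyme, fell by 0.83 (SE 0.165), so that not every source of NADPH was higher. In the KEGG annotation 10 of 29 pentose phosphate genes rose and 5 fell, and 6 rose and 1 fell against vehicle 63 and 64.

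Interferon-induced genes went both ways. Of 22 tested, 5 rose (22.7%, against 11.3% over all genes) and 4 fell (18.2%, against 12.4%). There were 3 that rose and 2 that fell against vehicle 63 and 64, and 4 and 3 against 32, 33 and 34. Oas2, a sensor of double-stranded RNA, was at 26.3 to 51.0 CPM against 2.19 to 8.76 CPM (log2 fold change 3.01, SE 0.355, edgeR adjusted p = 5.44e-05). Mx1 fell by 1.78 (SE 0.56) and Rsad2 by 1.28 (SE 0.399), and neither passed against vehicle 32, 33 and 34. Among 13 neuropeptides 3 fell (23.1%, against 12.4% over all genes) and none rose, and 4 of the 13 had positive values. The 3 fell in all 3 fits: Sst (-1.79, SE 0.32), Cartpt (-1.50, SE 0.356) and Calcb (-0.97, SE 0.235).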
